A study of Rattus norvegicus with 11 samples.

Results

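Caveolae are flask-shaped pits of the plasma membrane. Caveolins are hairpin membrane proteins that build the coat of the pit from the inside, and cavins are cytoplasmic proteins that assemble on that coat and stabilise it. Cav1 is the caveolin of endothelial cells, fibroblasts, smooth muscle and fat cells, whereas Cav3 is the caveolin of striated muscle and lines the surface membrane and transverse tubules of heart muscle cells. Cavin3, also known as Prkcdbp or Srbc, is a cavin that binds protein kinase C delta and links caveolae to signalling.

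The 3 genes, of 4736 named by single symbols, were read by 6 of the 8799 probe sets in the table, namely 1 for Cav1 (Z46614cds_at), 3 for Cav3 (rc_AI043968_at, rc_AI043968_g_at and rc_AI104707_at) and 2 for Cavin3 (D85435_at and D85435_g_at). The probe sets were taken by the gene symbol of the platform annotation. The genes themselves were selected on old against young values of these same arrays, so every difference between the age groups is given here as a description and not as support. All 6 probe sets passed the filter on dim signal, and 0 probe sets with several symbols held one of the genes. The annotation gave 0 probe sets to the remaining family members Cav2, Cavin1, Cavin2 and Cavin4.

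The old group held 6 arrays of heart ventricle RNA from Fischer-344 rats, an inbred strain used in ageing research, aged 22 months, and the young group held 5 arrays from rats of the same strain aged 4 months. The labels name no treatment, genotype or sex, and do not say whether an array is 1 animal or a pool, so standard errors and p-values measure the spread between arrays, which may be technical. Values are linear intensities that had been scaled so that the trimmed mean of every array lay between 500.5 and 501.0. For folds and fits they were raised to a floor of 47.4 and put on the log2 scale. Levels of different probe sets are not comparable with each other, so only changes across arrays are compared. In bulk ventricle, fewer cells of a type and less RNA per cell cannot be told apart. All 11 tested markers of heart muscle cells had signal above the floor on every array, while 2 of the 10 endothelial markers on the array, Vwf and Icam2, were too dim to be tested.

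The arrays also differed in a way that the labels do not give. Bacterial spike-in controls, which are transcripts added to each sample, averaged 9.55 to 10.2 on the log2 scale on 6 arrays (old replicates 1 and 2 and young replicates 1, 2, 3 and 5) and 11.97 to 15.24 on the other 5 (old replicates 3 to 6 and young replicate 4). These are called dim and bright arrays below. The line between them lies at the widest gap, 1.76, but the next gap, below old replicate 6, was 1.71. Since 4 of the 5 bright arrays are old and 4 of the 6 dim ones are young, the differences of the 6 probe sets are also given with the class as a block and within each class. Old replicates 3 and 4, both bright, also had GAPDH control ratios of 3' over 5' signal of 3.39 and 4.09 (log2), against 0.07 to 0.77 on the other 9 arrays.

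The Cav1 probe set had the widest range of the 6. In the old arrays its intensity was 3781 and 1323.8 in replicates 1 and 2, and 20.5, 54.9, 89.4 and 903.3 in replicates 3 to 6. In the young arrays it was 1936.5, 1662.3, 2052.1, 391.9 and 1678.1 in replicates 1 to 5. The groups overlapped, since the highest array of all was old and the lowest young array lay below 3 of the old ones. On the dim arrays Cav1 was bright in both age groups and stood at or above the 90.0th percentile of the array. On 3 of the 4 bright old arrays it was at 89.4 or lower, and young replicate 4, the single bright young array, was the lowest young one.

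Cav1 had a log2 mean of 8.32 ± 2.70 (SD, n = 6) for the old arrays and 10.39 ± 1.00 (SD, n = 5) for the young ones. Old minus young was -2.07 ± 0.93 (SE). This value was not stable to the choice of arrays. It was -0.45 ± 0.71 once the class was a block and 0.29 ± 0.41 on the dim arrays alone, where 2 old arrays met 4 young ones and the direction turned. On the bright arrays alone, which set 4 old arrays against 1 young array, it was -1.70 ± 1.65. With old replicates 3 and 4 (high GAPDH ratio) left out it was -0.75 ± 0.80.

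**Figure D1:**
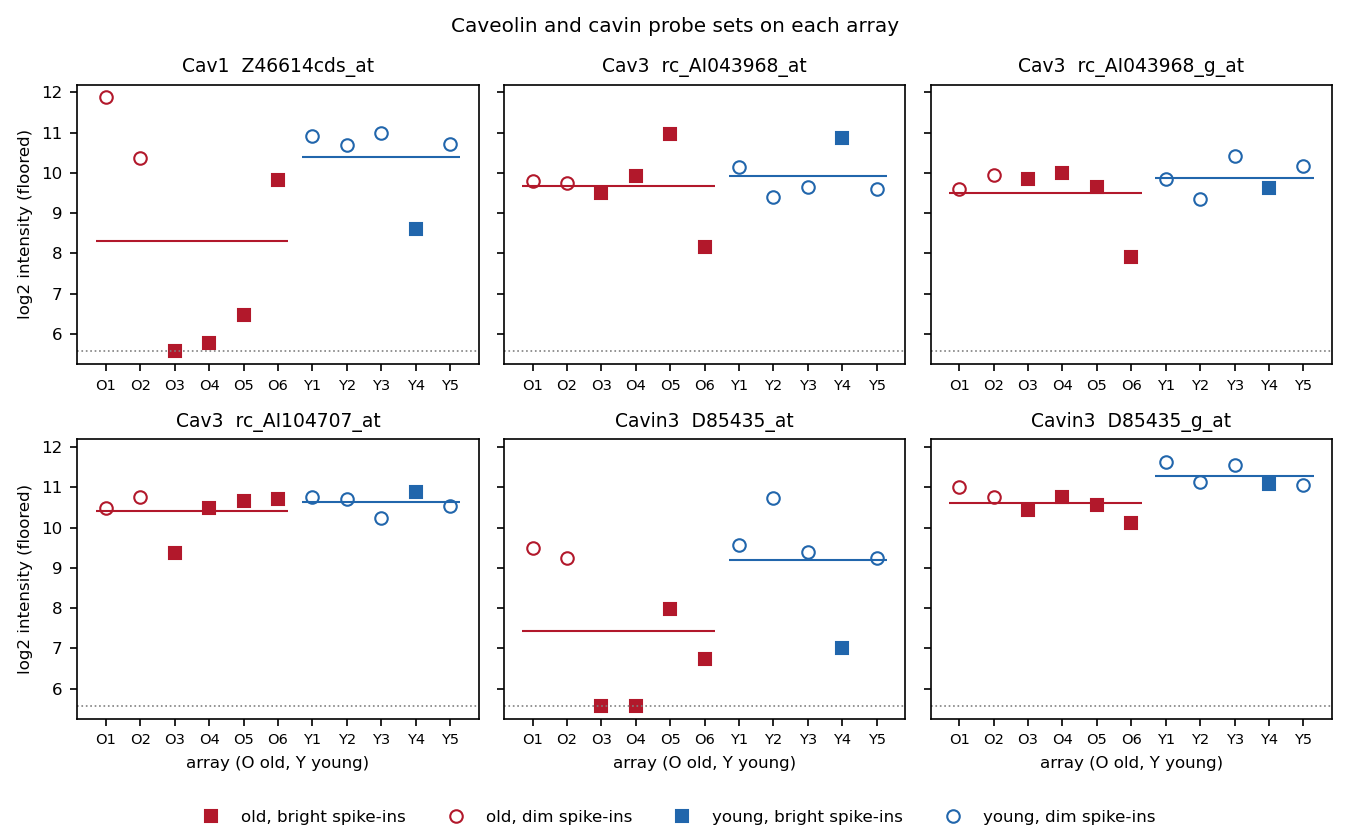
Log2 intensity, floored, of the 6 probe sets (panels) on each of the 11 arrays (x axis; O, old; Y, young). Filled squares are arrays with bright spike-ins, open circles arrays with dim ones, horizontal lines group means, and the dotted line is the floor at 5.57. In the panels of Cav1 and D85435_at every filled square lies below every open circle, and in that of D85435_g_at every old array lies below every young one.

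Cav3 was read by 3 probe sets, and none of them separated the ages. For rc_AI104707_at, the one of highest mean, the old arrays read 1427.3, 1747.4, 661.4, 1442.5, 1611.3 and 1666.1 in replicates 1 to 6, and the young ones 1741.4, 1687.9, 1209.1, 1896.1 and 1488.1 in replicates 1 to 5. All but old replicate 3 lay within the span of the young group. The difference was -0.22 ± 0.32 (SE, log2), with a 95% interval of -0.89 to 0.45, and without old replicate 3 alone it was -0.01 ± 0.29.

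The other Cav3 probe sets come from a single expressed sequence tag. For rc_AI043968_at the old arrays read 900.5, 856.8, 721.2, 974.3, 2006.2 and 287.6, and the young ones 1129.3, 679.1, 809.9, 1854.9 and 778.5. Its highest values in either group came from bright arrays, old replicate 5 and young replicate 4, and its lowest from another bright array, old replicate 6. The difference was -0.25 ± 0.44 (95% interval -1.16 to 0.67), and it was 0.06 ± 0.37 without old replicate 6.

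For rc_AI043968_g_at the old arrays read 779.4, 993.2, 917.9, 1032.9, 798.8 and 240.9, and the young ones 914.7, 652.1, 1359.1, 790.2 and 1143.3. Old replicate 6 was again far below the rest, and the other old arrays lay inside the young span. The difference was -0.38 ± 0.41 (95% interval -1.23 to 0.47), and -0.06 ± 0.31 without old replicate 6. On the dim arrays the Cav3 differences were 0.07 ± 0.36 for rc_AI043968_at, -0.16 ± 0.39 for rc_AI043968_g_at and 0.06 ± 0.32 for rc_AI104707_at. On the bright arrays rc_AI043968_at differed by -1.22 ± 0.91, resting on the high value of the single young array, and the other two by -0.27 ± 0.96 (rc_AI043968_g_at) and -0.58 ± 0.73 (rc_AI104707_at). With the class as a block the 3 values were -0.41 ± 0.49, -0.20 ± 0.45 and -0.18 ± 0.36, in the same order. The intervals for Cav3 reach down to -1.23, so they do not show equal expression.

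Cavin3 was read by a pair of probe sets named for the same GenBank record, and both were lower in old, by different amounts. D85435_g_at read 2066.6, 1751.7, 1378.2, 1719.3, 1507.5 and 1103.5 in old replicates 1 to 6, and 3161.3, 2233.4, 2992.2, 2155.3 and 2115.8 in young replicates 1 to 5. Every old array lay below every young array, by a narrow margin between 2066.6 and 2115.8. The old mean was 10.60 ± 0.31 (SD, n = 6) and the young mean 11.28 ± 0.28 (SD, n = 5), so old minus young was -0.68 ± 0.29 (SE, log2). The difference was -0.51 ± 0.31 with the class as a block, -0.44 ± 0.31 on the dim arrays and -0.61 ± 0.67 on the bright ones. Without old replicates 3 and 4 it was -0.67 ± 0.32, so the value ran from -0.68 to -0.44 over these choices and stayed below 0.

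D85435_at read 718.3, 604.6, 30.6, 35.3, 250.9 and 107.0 in the old arrays and 759.5, 1693.8, 670.0, 128.6 and 607.6 in the young ones. Here the groups overlapped, and the 5 lowest arrays were the 5 bright ones, including young replicate 4. Old replicates 3 and 4 lay under the floor, so the fitted difference understates how low they lay. The old mean was 7.43 ± 1.74 (SD, n = 6) and the young mean 9.19 ± 1.35 (SD, n = 5), so old minus young was -1.76 ± 0.77 (SE). It shrank to -0.43 ± 0.59 with the class as a block and -0.37 ± 0.46 on the dim arrays, and was -0.55 ± 1.39 on the bright arrays and -0.83 ± 0.69 without old replicates 3 and 4.

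Over the whole table, 0 of 5244 tested probe sets passed a limma adjusted p of 0.05 between old and young (0% called), and so 0 of the 6 did. At an unadjusted p under 0.05, 394 probe sets lay in the table. Lower in old at that level were 3 of the 6 (Cav1 and both of Cavin3), beside 4.12% of all tested probe sets. All old arrays lay below all young arrays for 1 of the 6, D85435_g_at, beside 0.42% of all. Nothing is read from these shares, because the same values drew attention to the genes. All 6 differences were below 0, with a median of -0.53, where the median over all tested probe sets was -0.01 and 50.6% were below 0.

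**Figure D2:**
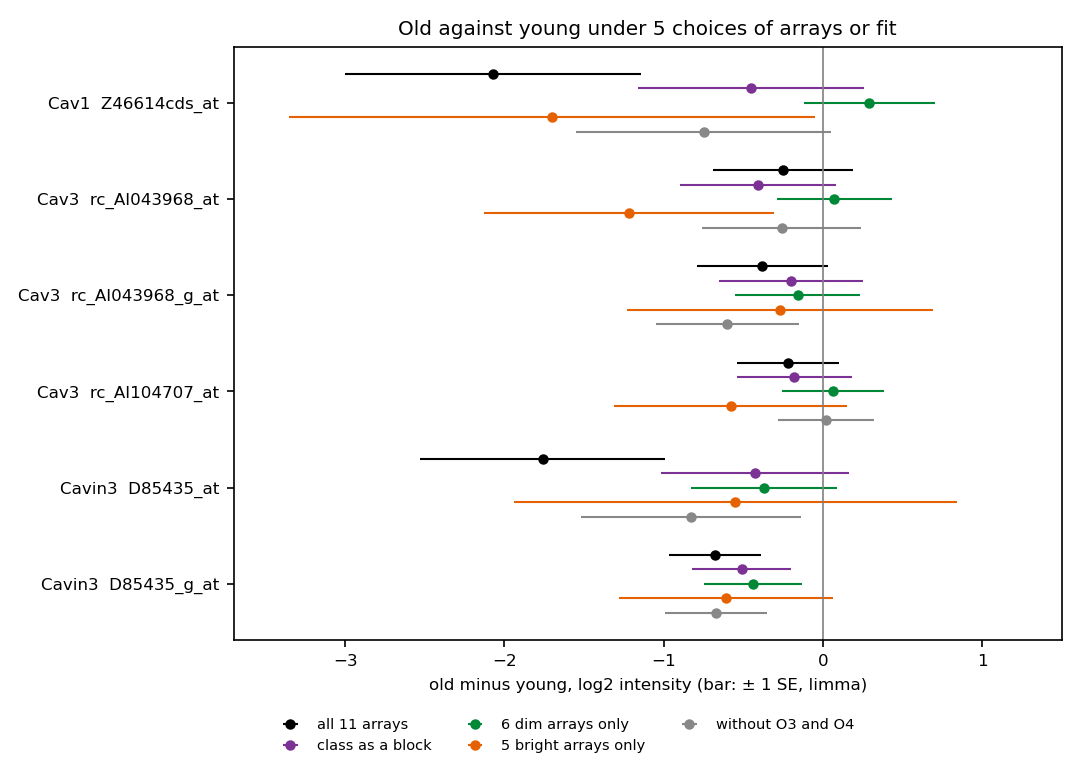
Old minus young difference in log2 intensity (x axis; points, with bars of 1 SE from limma) for each probe set (y axis) with all 11 arrays, with class (spike-ins) as a block, on the 6 dim or the 5 bright arrays, and without O3 and O4, whose GAPDH ratio was high. Cav1 moves from -2.07 with all arrays to 0.29 on the dim ones, D85435_at from -1.76 to -0.37, and D85435_g_at from -0.68 to -0.44.

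The difference between bright and dim arrays was then taken from the fit with age and class together. This term was added after the values had been seen, and the class overlaps with age, so genes picked for low old values also tend to be low on bright arrays. The class differences of the 6 probe sets are therefore a description and no test. For Cav1 the bright arrays averaged 7.25 ± 1.87 (SD, n = 5) and the dim arrays 10.93 ± 0.52 (SD, n = 6), an age-adjusted difference of -3.47 ± 0.71 (SE). For D85435_at of Cavin3 the means were 6.57 ± 1.02 (SD, n = 5) and 9.61 ± 0.56 (SD, n = 6), a difference of -2.84 ± 0.59 (SE). The bright mean of D85435_at lies under the filter on dim signal, so this probe set was kept through the dim arrays, where it is high. At the adjusted threshold 2 of the 6 were lower in the bright arrays, beside 0.801% (42) of the 5244, and 0 of the 6 were with no filter. All bright arrays lay below all dim arrays for the same 2, beside 2.06% of all probe sets. Nothing is read from these shares.

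The difference lay between -4.22 and -2.64 for Cav1 and between -3.13 and -2.33 for D85435_at over 20 alternatives. Both fell short of the threshold without old replicate 1, old replicate 2 or young replicate 4, each left out in turn, and these are the arrays that put both classes in both age groups. The total of 64 probe sets past the threshold in the table ran from 5 without young replicate 4 to 192 with array weights.

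The other members differed less by class. D85435_g_at differed by -0.37 ± 0.31 (SE), and the Cav3 probe sets rc_AI043968_at, rc_AI043968_g_at and rc_AI104707_at by 0.35 ± 0.49, -0.39 ± 0.45 and -0.08 ± 0.36. What set the arrays apart, and its part in the low values of Cav1 and D85435_at, was not tested.

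**Figure D3:**
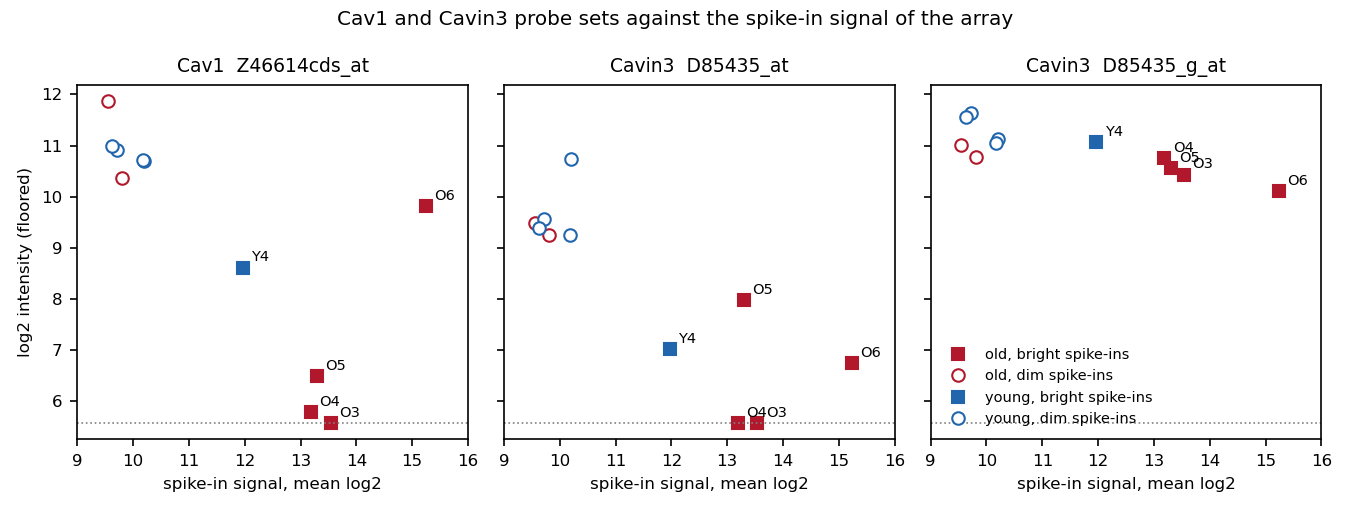
Log2 intensity, floored, of Cav1 and both Cavin3 probe sets (y axis) against the mean log2 signal of 9 bacterial spike-in probe sets (x axis) on the 11 arrays, with the bright arrays named. Cav1 and D85435_at lie at 9.24 or above on all 6 dim arrays, while the bright arrays lie at 9.82 or below for Cav1 and 7.97 or below for D85435_at, and D85435_g_at spans 10.11 to 11.63 over all arrays.

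Of the 4 pairs of probe sets that read the same gene, only the Cavin3 pair passed, by rank correlation, in permutation tests adjusted over the 4. The 3 Cav3 pairs did not pass. Cavin3 was chosen on old against young values, which the shuffling of all 11 arrays takes in, so nothing is read from that pass. For D85435_at and D85435_g_at, Pearson r was 0.65 and Spearman rho 0.77 (permutation p = 0.0333 and 0.00708, adjusted p = 0.133 and 0.0283), so the rank correlation passed and r did not. Their r was 0.62 without old replicates 3 and 4, and 0.45 about the group means. On the 6 dim arrays alone r was 0.06 and rho 0.60 (exact permutation p = 0.926 and 0.242, adjusted p = 0.926 and 0.952), and the 5 bright arrays are too few for a value. For Cav3, rc_AI043968_at and rc_AI043968_g_at gave Pearson r = 0.56 and Spearman rho = 0.14 over 11 arrays (permutation p = 0.106 and 0.696, adjusted p = 0.212 and 0.696). Their r was -0.16 without old replicates 5 and 6, so the relation rests on those arrays. For rc_AI043968_at with rc_AI104707_at, r was 0.20 and rho 0.27 (permutation p = 0.452 and 0.419, adjusted p = 0.452 and 0.559), and r was 0.49 without old replicates 5 and 6. For rc_AI043968_g_at with rc_AI104707_at, r was -0.25 and rho -0.37 (permutation p = 0.311 and 0.262, adjusted p = 0.415 and 0.523), and r was -0.19 without old replicate 6 and young replicate 3. Taken about the group means, the 3 values of r for Cav3 were 0.55, 0.16 and -0.37.

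The Cavin3 probe sets moved by different amounts across the arrays. The log2 difference of D85435_at and D85435_g_at on an array was -4.01 ± 1.07 (SD, n = 5) on the bright arrays and -1.58 ± 0.63 (SD, n = 6) on the dim ones. It lay between -2.16 and -0.40 on the dim arrays and between -5.18 and -2.59 on the bright arrays. The lowest 2 of these values, on old replicates 3 and 4, are set by the floor, so they and the bright mean are upper bounds. The change from dim to bright was -2.43 with the floor and -2.64 on the deposited values. Of the 487 pairs of tested probe sets whose names differ only by the g suffix, 4 (0.82%) were as low as -2.43. Without old replicates 3 and 4 the change was -1.76, and 17 pairs (3.49%) were as low. The Cav3 pair moved by 0.63 on the same measure, against a median of -0.13 over all pairs. The median r of all 487 pairs over the 11 arrays was 0.29, and 77.8% of them had a lower r than the Cavin3 pair. Cavin3 was chosen on old against young values, which overlap with the class, and D85435_at was kept through the dim arrays. Nothing is therefore read from these shares. The share of pairs whose classes do not overlap was not counted.

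**Figure D4:**
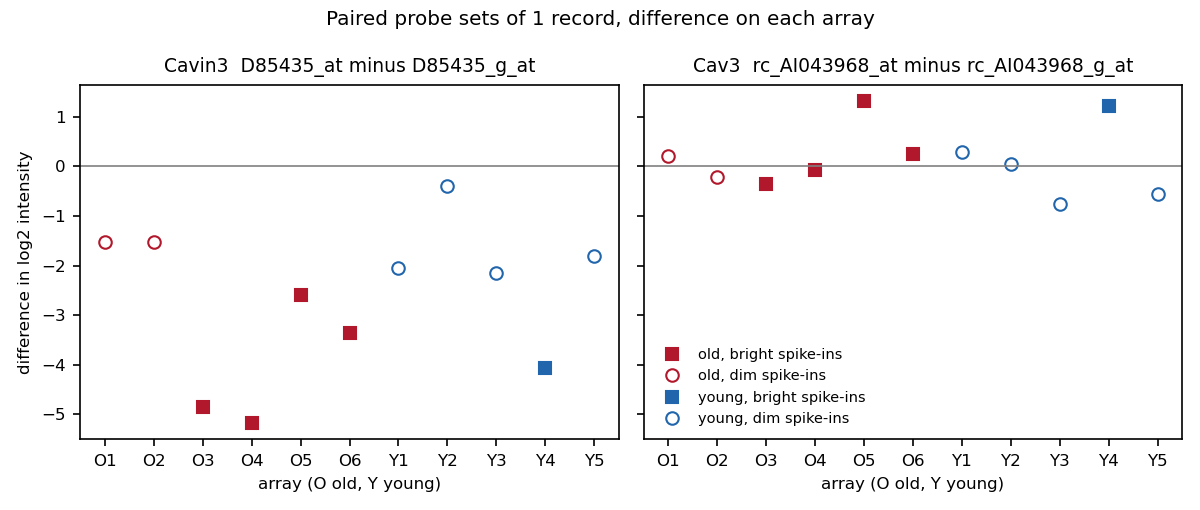
Log2 intensity of the probe set without the g suffix minus that with it (y axis) on each array (x axis), for the Cavin3 pair and the Cav3 pair. The Cavin3 pair lies between -2.16 and -0.40 on the dim arrays (open circles) and between -5.18 and -2.59 on the bright ones (filled squares), where O3 and O4 are set by the floor, and the Cav3 pair spans -0.75 to 1.33, with old replicate 5 and young replicate 4 highest.

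The genes whose pattern over the 11 arrays was most like that of Cav1 were picked by r, so they tend to share the direction of its class difference. They were Pgm1, a phosphoglucomutase (r = 0.95), and Dnaja4, a co-chaperone, Aldh6a1, a mitochondrial dehydrogenase of valine breakdown, Grina, and Cyb5r3, a cytochrome b5 reductase (each r = 0.94). All 5 were lower on the bright arrays, with class differences of -2.19 to -1.30 with age in the fit, and on the 6 dim arrays alone their r with Cav1 was -0.26 to 0.17. For Cav3 (rc_AI104707_at) the nearest genes were Ptprs, a receptor tyrosine phosphatase (r = 0.94), Kcnh2, the potassium channel of rapid repolarisation (r = 0.90), Plpp1 (r = 0.89), RT1-DOa (r = 0.88) and Pfkfb4 (r = 0.87), with 0.03 to 0.55 on the dim arrays. For Cavin3 (D85435_g_at) they were Calr, the calcium-binding chaperone calreticulin (r = 0.91), Adcy6, an adenylyl cyclase (r = 0.88), Hadha, of mitochondrial fatty acid oxidation (r = 0.88), Entpd2 (r = 0.87) and Dlat, a subunit of pyruvate dehydrogenase (r = 0.87). Those 5 had an r of 0.63 to 0.89 on the dim arrays, which are among the 11 that they were picked on. About the group means their r was 0.64 to 0.81. All 5 were lower in old, by -1.49 to -0.55, and Cavin3 itself was chosen on old against young values. These values describe the closest of 3206 genes and carry no test.

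Other genes of caveolae and lipid rafts also gave 0 calls. Of 6 tested genes of the caveola machinery besides the 3 (flotillins, dynamins and membrane-bending proteins), 4 were lower and 2 higher in old, with a median of -0.60 beside 0 over all 3206 genes, and 0 passed (limma). Flot2, a flotillin that scaffolds lipid rafts, had means of 9.67 ± 1.20 (SD, n = 6, old) and 11.06 ± 0.46 (SD, n = 5, young) and differed by -1.39 ± 0.48 (SE, limma adjusted p = 0.56), or by -1.51 ± 0.54 with the class as a block. Flot1 differed by -0.78 ± 0.46, Dnm2, a dynamin that pinches off membrane pits, by 1.04 ± 0.62 and its relative Dnm1 by 0.31 ± 0.56. Pacsin2, which bends the neck of caveolae, differed by -1.01 ± 0.68, and by 0.05 ± 0.58 with the block. Its class difference was -2.28 ± 0.58 (SE, limma adjusted p = 0.0609). The block gave -0.73 ± 0.52 for Flot1, 1.09 ± 0.71 for Dnm2 and 0.30 ± 0.63 for Dnm1.

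Among 28 tested genes for proteins reported to bind caveolins or reside in caveolae, 22 were lower and 6 higher in old, with a median of -0.15, and 0 passed (limma). Over all 3206 genes 1603 were lower, and the list was put together with earlier results of these arrays known. On the bright arrays 19 of the 28 were lower, with a median class difference of -0.26, and 1 passed. Over all 3206 genes 1601 were lower on the bright arrays, the median was 0 and 25 passed. The 1 on the list was Cd36, a fatty acid transporter, with a class difference of -4.40 ± 0.71 (SE, limma adjusted p = 0.00362). Its old minus young difference was -0.98 ± 1.08, or 1.07 ± 0.71 with the block. Adrb1, the main beta-adrenergic receptor of the heart, differed by -1.85 ± 0.57 (SE, limma adjusted p = 0.537) and Slc2a4, the insulin-dependent glucose transporter, by -0.95 ± 0.31 (limma adjusted p = 0.56). Adcy6 differed by -1.02 ± 0.49. Adora1, an adenosine receptor, went the other way with 1.45 ± 0.52 (limma adjusted p = 0.56), as did Pdgfra with 0.60 ± 0.31 and Tgfbr1 with 0.26 ± 0.57. With the class as a block these differences were -1.56 ± 0.63 for Adrb1, -0.84 ± 0.35 for Slc2a4, -0.61 ± 0.52 for Adcy6, 1.17 ± 0.57 for Adora1, 0.67 ± 0.35 for Pdgfra and -0.06 ± 0.63 for Tgfbr1, which turned. Nos3, the endothelial nitric oxide synthase that Cav1 holds inactive, differed by -0.20 ± 0.50, and turned to 0.27 ± 0.52 with the block. Of 6 tested genes of the dystrophin complex and membrane repair, which work at the same membrane as Cav3, 4 were higher and 2 lower, with a median of 0.24 and 0 calls (limma). Utrn, the homologue of dystrophin, differed by -0.53 ± 0.63. Of the annexins, which bind membranes in the presence of calcium, Anxa5 differed by 0.43 ± 0.38, Anxa2 by 0.42 ± 0.39, Anxa1 by 0.44 ± 0.42 and Anxa6 by -0.25 ± 0.35. With the block Utrn turned to 0.29 ± 0.59, and these annexins gave 0.67 ± 0.41, 0.62 ± 0.43, 0.42 ± 0.47 and -0.38 ± 0.38.

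Markers of the cell types that carry Cav1 are given beside it, and their part in its values was not tested. The single markers named here, and Nos3 above, were chosen after their values were seen. Of 8 tested endothelial markers 6 were lower in old and 4 were lower on the bright arrays, and 0 passed in the class fit (limma). Over all 3206 genes 1603 were lower in old, 1601 were lower on the bright arrays and 25 passed in the class fit. The median difference between old and young was -0.25 for endothelial and -0.14 for fat cell markers (4 of 7 lower), against 0.21 for fibroblast (5 of 9 higher) and 0.99 for smooth muscle markers (4 of 5 higher). The mean log2 level of the endothelial markers was 7.95 to 9.05 in old and 8.36 to 9.38 in young. Their summed intensity was 2585 to 6189 on the bright and 4082 to 7269 on the dim arrays. Pecam1, an endothelial adhesion molecule, differed by class by -1.72 ± 0.67 and Nos3 by -1.01 ± 0.52, whereas Kdr, a receptor of vascular growth factor, differed by 1.09 ± 0.79. Fat cell markers, of which 7 were tested, summed to 8894 to 10544 on the bright and 11203 to 18043 on the dim arrays, without overlap. All bright arrays lay below all dim ones for 2.06% of single probe sets, and the share for sums was not counted. Nothing is therefore read from it. The mean log2 level of the fat cell markers overlapped (8.97 to 10.14 and 9.37 to 9.96), since the sum follows the brightest genes. On the bright arrays 4 of the 7 were lower and 3 higher, Scd by 1.01 ± 0.74. Of the lower ones only Lpl, lipoprotein lipase, passed, with a class difference of -1.41 ± 0.33 (SE, limma adjusted p = 0.0466). Its mean log2 signal of 12.17 was the highest of the 7, so it weighs most in the sum.

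Fibroblast markers summed to 34410 to 74454 on the bright and 43388 to 108273 on the dim arrays, with 4 of 9 lower on the bright ones. Smooth muscle markers summed to 6719 to 20682 and 7419 to 15893, with 2 of 5 lower. The 11 heart muscle markers, which accompany Cav3, summed to 418592 to 588256 on the bright and 363449 to 516726 on the dim arrays. Of these 11, 5 were lower on the bright arrays, with a median class difference of 0.09. Only Pln, phospholamban, passed among them in the class fit, beside 25 of all 3206 genes, with -2.32 ± 0.37 (SE, limma adjusted p = 0.00353). Red cell, macrophage, skeletal muscle and atrial markers gave 0 calls by class. Red cell markers were lower on the bright arrays in 3 of 3 genes, with a median class difference of -2.39, and atrial ones in 1 of 3, with 1.54. For macrophage and skeletal muscle markers it was -0.14 and 0.30. Between old and young, all 4 of these lists had medians above 0, with 1.29 for red cell markers (3 of 3 higher), 0.95 for atrial (3 of 3), 0.95 for macrophage (3 of 4) and 0.85 for skeletal muscle markers (3 of 5). The skeletal muscle list shares Ckm with the heart muscle list, and its Mybpc1 lay at the floor on 4 arrays. For heart muscle markers the median was -0.25, with 7 of 11 lower. The part of these markers in the differences of the 3 genes was not tested.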

How the data were processed

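The authors deposited 1 linear intensity per probe set and array. How the scanner images became these intensities is not given in the sources used here. Groups and replicate numbers came from the sample titles. Values under the 20th percentile of the whole table (47.4) were set to it before taking log2. The 59 control probe sets and those whose mean lay under the 40th percentile (7.00) were left out, which left 5244. Old and young were compared in limma 3.58.1 (R 4.3.3) (trended eBayes), with p-values adjusted by Benjamini-Hochberg over the 5244 and a threshold of 0.05. Gene lists used the tested probe set of highest mean per gene (3206 genes), and described 3 genes per direction with the smallest p. Spike-in class was set by the widest gap in the mean log2 of 9 probe sets. Permutation tests of r were two-sided, with 100000 resamples for 11 arrays and complete enumeration for 6. Scripts were tested on simulated data. The members and lists were chosen with earlier results of these data known, and likeness took the 5 genes of highest r. Symbols came from the platform annotation, and all 3 genes matched RefSeq (GRCr8) by gene number. The number of arrays limits the precision, with a median standard error of 0.56. The labels give no pairing of same-numbered arrays, so the main fit did not pair them. Their deviations from the group means gave r = 0.25, -0.05, -0.08, 0.02 and -0.25. These values cannot exclude a pairing, because the spike-in class differs within some numbers.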

Additional observations from a re-analysis of the deposited data

Results flagged for a closer look

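In 12 groups of values (6 probe sets in 2 age groups), 3 held an array whose gap to its neighbour exceeded Dixon's 95% limit. That limit is passed by about 1 in 20 for values from 1 normal population, whereas both age groups mix bright and dim arrays. The share over all tested probe sets was not counted, so nothing is read from the count of 3. Young replicate 4 read 8.61 for Cav1 (Z46614cds_at) on the log2 scale, while the remaining 4 young arrays lay at 10.7 or higher. Old replicate 6 read 7.91 for Cav3 rc_AI043968_g_at, against 9.61 to 10.01 in the other old arrays. Old replicate 3 read 9.37 for Cav3 rc_AI104707_at, against 10.48 to 10.77 in the other old arrays. All 3 are arrays with bright spike-ins, and the part of that class in these values was not tested.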

How the results depend on the processing

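Over 25 alternatives, 7 of 150 differences between old and young changed sign, 6 of them for Cav3 and 1 for Cav1. Cavin3 was lower in old under all 25, by -2.30 to -0.34 for D85435_at and -0.80 to -0.40 for D85435_g_at. The value of -0.34 had an SE of 0.70. Cavin3 was chosen on old against young values and the alternatives refit the same arrays, so nothing is read from the constant sign. By more than the SD of arrays within the age groups moved Cav1 on the dim arrays (0.29) and Cav3 rc_AI043968_at on the bright arrays (-1.22). That SD spans both spike-in classes and was wide, with 2.12 for Cav1 and 1.58 for D85435_at. The smaller differences with the class as a block, -0.45 for Cav1 and -0.43 for D85435_at, are therefore not counted as moved. Array weights gave -1.16 for Cav1 and -1.01 for D85435_at. With the replicate block, over the arrays numbered alike, Cav1 differed by -2.37 and the Cavin3 probe sets D85435_at and D85435_g_at by -1.62 and -0.58, and no call changed. The table gave 1 call on the dim arrays alone, 5 on the bright arrays alone, and 0 to 2 when each array was left out, with 2 without old replicate 5. None was a member. The class difference of Cav1 kept its value but not its side of the threshold with no filter (-3.47, adjusted p = 0.117) or no trend (-3.47, adjusted p = 0.0667), as did D85435_at with no filter (-2.84, adjusted p = 0.0701). Leaving out 1 array gave -4.22 to -2.84 for Cav1 and -3.13 to -2.65 for D85435_at.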
